A study of Rattus norvegicus with 13 samples.

Results

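Molecular chaperones of the heat shock protein, DnaJ and CCT families were examined in the posterior ventricular zone (VZ) of newborn rats. The members were chosen by name: every deposited row with a mean of at least 10 normalized counts over all pups whose gene name begins with Hspa, Hspb, Hspd, Hspe, Hsph, Hsp90, Dnaja, Dnajb or Dnajc and a number, or is a subunit of the CCT ring (*Cct2* to *Cct8*, *Tcp1*). This gave 70 rows of 70 genes, out of 14606 rows that reached that mean and 14716 that were deposited. No row with such a name fell below the mean of 10. Rows without a gene name, 1488 in number, could not be chosen, so a chaperone among them would be missed. The lowest that entered were *Hspa1l*, with a mean of 30.8 normalized counts, and *Dnajc22*, with 40.3.

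Long Evans dams drank either deionized water (control) or water with 3 ppm propylthiouracil (PTU), an inhibitor of thyroid hormone synthesis, from early pregnancy onward. The control pups are labelled euthyroid and the PTU exposed pups hypothyroid. The libraries came from males killed on postnatal day 2 (PN2), 7 control and 6 PTU exposed, no pair of them littermates. Their VZ was cut out by laser on the basis of its pseudostratified look in stained sections. Total RNA of each pup was sequenced after rRNA depletion. The paper reports some degradation of the captured VZ RNA and gives its integrity as an average over pups. The comparison of PTU exposed with control pups asks whether low thyroid hormone alters transcripts in this progenitor layer. The RNA is a mixture of the cells captured, so fewer cells of a type and less RNA per cell cannot be told apart.

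Chaperones bind proteins that are not yet folded or have lost their fold. HSP70 proteins (Hspa) grip short hydrophobic stretches in cycles of ATP binding, DnaJ proteins bring the clients and start ATP hydrolysis, and HSP110 proteins release the spent nucleotide. HSP90 proteins finish kinases and hormone receptors, small heat shock proteins (Hspb) hold unfolded proteins in solution, Hspd1 and Hspe1 form the folding chamber of mitochondria, and the CCT ring folds actin and tubulin, which shape dividing progenitors and growing neurites. Many of these genes are switched on by heat shock factor, and those of the endoplasmic reticulum (ER) by the unfolded protein response.

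The promoters of these genes hold short sequences that are known from this regulation, and 5 are shown here because they carry the full elements next to the genes whose levels are described further on. RefSeq (GRCr8) gave a window from 250 bases before to 50 bases after the start for 58 of the 70 genes. Each window was searched on both strands. The heat shock element was taken as 3 alternating units of GAA and TTC, starting with either and with any 2 bases between units. Matches could overlap each other and those of the shorter element of 2 units. The element of 3 units was in 6 of the 58 member windows (10.3%) and in 267 of all 33469 windows (0.798%). The 6 were *Hspa8*, *Hsph1*, *Hspd1*, *Hspe1*, *Dnaja1* and *Cct4*. *Hspa8* carried it at -213 to -201 and again at -55 to -43 from the start, *Hsph1* at -36 to -24, and *Hspe1* in an overlapping pair at -65 to -53 and -60 to -48. The starts of *Hspd1* and *Hspe1* face away from each other, 289 bases apart, so the overlapping pair in *Hspe1* is the same stretch that matched in the window of *Hspd1*. The ER stress response element (CCAAT, any 9 bases, then CCACG, or the reverse complement) was in 3 member windows (5.17%), those of *Hspa5*, *Hsp90b1* and *Dnajc3*, and in 22 of all windows (0.0657%). A match is a run of letters and not a shown binding site. In the following 250 bases before each start, written 5′ to 3′ on the strand of the gene, capitals mark the heat shock element of 3 units in the first 3 and the ER stress response element in the last 2.
Hspa8, chr8:50080264-50080513, + strand: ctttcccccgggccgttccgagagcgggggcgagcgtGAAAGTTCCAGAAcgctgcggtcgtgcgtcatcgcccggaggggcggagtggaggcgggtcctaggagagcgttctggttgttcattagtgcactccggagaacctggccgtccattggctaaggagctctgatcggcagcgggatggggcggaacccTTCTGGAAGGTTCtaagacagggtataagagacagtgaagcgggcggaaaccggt
Hsph1, chr12:10427118-10427367, + strand: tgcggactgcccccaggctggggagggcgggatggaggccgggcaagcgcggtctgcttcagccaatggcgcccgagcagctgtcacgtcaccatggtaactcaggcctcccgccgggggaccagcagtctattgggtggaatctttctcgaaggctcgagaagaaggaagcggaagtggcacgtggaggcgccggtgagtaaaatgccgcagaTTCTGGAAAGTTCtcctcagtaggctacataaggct
Hspe1, chr9:64084077-64084326, + strand: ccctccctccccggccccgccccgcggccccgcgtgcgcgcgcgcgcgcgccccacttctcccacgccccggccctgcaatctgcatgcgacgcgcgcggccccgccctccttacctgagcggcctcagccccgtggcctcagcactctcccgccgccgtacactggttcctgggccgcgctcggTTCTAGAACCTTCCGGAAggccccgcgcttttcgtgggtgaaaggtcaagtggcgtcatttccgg
Hspa5, chr3:38452766-38453015, + strand: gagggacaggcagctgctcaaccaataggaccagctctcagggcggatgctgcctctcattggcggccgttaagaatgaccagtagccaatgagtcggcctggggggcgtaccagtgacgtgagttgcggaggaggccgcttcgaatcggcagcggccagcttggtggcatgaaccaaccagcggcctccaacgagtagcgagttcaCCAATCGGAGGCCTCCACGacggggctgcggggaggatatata
Hsp90b1, chr7:23012294-23012543, - strand: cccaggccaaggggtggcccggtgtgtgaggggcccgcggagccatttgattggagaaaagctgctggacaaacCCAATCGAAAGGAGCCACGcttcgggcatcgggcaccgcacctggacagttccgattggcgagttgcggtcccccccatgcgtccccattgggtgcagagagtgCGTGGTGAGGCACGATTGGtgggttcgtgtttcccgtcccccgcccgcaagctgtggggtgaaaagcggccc

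The shorter heat shock element was in 18 member windows (31%) and in 15.9% of all windows, and its members included *Hspa2*, *Hspb1*, *Hspb6* and *Hspb8*. The CCAAT box, which overlaps the ER element, was in 26 member windows (44.8%) and in 37.5% of all windows. The direct repeat of the thyroid hormone receptor site (AGGTCA, any 4 bases, then AGGTCA again) was in 0 member windows and in 2 of all windows (0.00598%), which says only that these letters are not in those 300 bases.

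The deposited values rest on an estimated 22286658 to 43500264 reads in control pups and 28408588 to 44379738 in the PTU exposed group. The 10 radial glia markers were all present, with *Sox2*, *Pax6*, *Nes* and *Vim* among them, and summed to 75130 to 104572 normalized counts in control pups and 62176 to 82649 in PTU exposed pups, with 6 lower at an unadjusted p under 0.05. Of all rows, 8.11% were higher and 8.2% lower at that level. Transcripts of neighboring cells were present as well. The 13 neuron markers summed to 57987 to 85989 in controls and 76747 to 151665 after PTU exposure, all 13 with a higher PTU mean on the log2 scale and 6 at an unadjusted p under 0.05, and PTU pup 1 was highest. The choroid plexus markers with a row (9 of 10, *Cldn2* had none) summed to 49090 to 138374 and 22952 to 98234, all 9 lower and 5 at an unadjusted p under 0.05, with control pup 6 lowest of the controls and PTU pup 6 lowest of all. Of the other lists, 2 of 6 astrocyte and 2 of 6 ependyma markers were lower at that level (*Foxj1* had no row), 2 of 7 oligodendrocyte markers were higher, 1 of 8 microglia markers was lower, and 0 of 6 endothelial markers and 0 of 1 erythrocyte marker reached that level. The part of these shifts in the chaperone results was not tested.

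Across the chaperone genes as a whole, no shift in 1 direction was seen. Of the 70 members, 33 had a higher and 37 a lower mean in PTU exposed pups, and the median log2 difference was -0.01 (middle range -0.11 to 0.13), beside 0.0038 over all 14606 rows. When all pups were given the same total, the median of all rows moved to 0.204 and that of the members to 0.19, and 33 members lay above and 37 below the median of all rows, so directions of families are given here relative to that median. In limma, 0 of the 70 members reached an adjusted p of at most 0.05, as did 0 of all rows (0%), and the smallest adjusted p of a member was 0.122. The count over all rows was 40 with pups weighted by quality (1 member) and 179 without PTU pup 2 (2 members). The paper reports differentially expressed genes at the same threshold from a count model, which was not run here. Before adjustment in limma with all pups, 12 members (17.1%) and 16.3% of all rows had a p under 0.05, so the share among chaperones was close to that of the background. Of these 12, 8 were higher after PTU exposure, where 8.11% of all rows were, and 4 were lower, where 8.2% of all rows were. The count of 8 depended on single pups: it was 4 without PTU pup 1, 5 without control pup 2, 3, 4 or 5 or PTU pup 3, and 11 without PTU pup 2. The count of 4 lower members was 1 with the same total for every pup and 7 with a block on replicate number. The groups did not overlap for 2 members, *Cct3* and *Dnajc12*, and in both the exposed pups were the higher ones, as in 0.335% of all rows (0.596% without overlap in either direction).

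**Figure D1:**
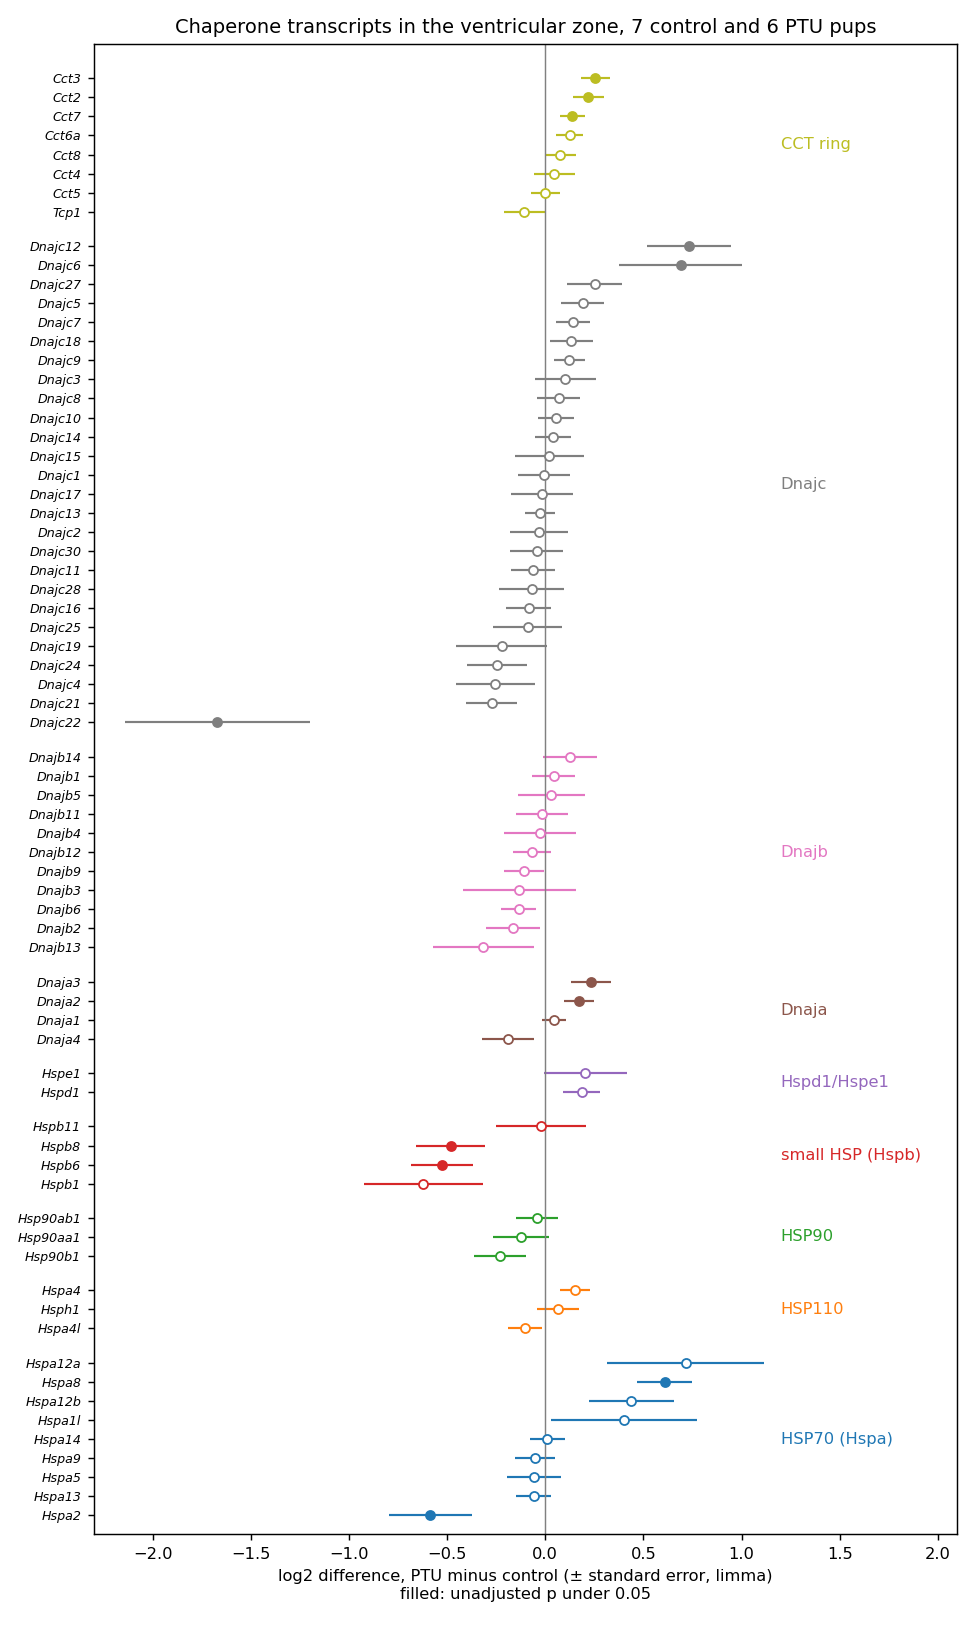
Log2 difference (PTU minus control, horizontal axis) of each of the 70 members by family, with points for the limma estimate, bars for the standard error and filled points for an unadjusted p under 0.05. Values run from -1.67 for *Dnajc22* to 0.73 for *Dnajc12*, and most lie close to 0. All 4 Hspb genes lie below 0 (*Hspb11*, a small heat shock gene by name only, at -0.02) and 6 of 8 CCT subunits above it. With the same total for every pup 1 Hspb gene and 8 CCT subunits lie above 0, when the median of all rows is at 0.204.

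In the HSP70 family (9 genes, median log2 difference 0.01), 1 gene was higher and 1 lower at an unadjusted p under 0.05, close to the shares of all rows (8.11% and 8.2%), and both belong to the cytosol. *Hspa8* encodes the constitutive HSP70 of the cytosol (Hsc70), which also strips clathrin coats from vesicles. Its normalized counts ran from 1922 through a median of 2367 to 3987 in control pups and from 3550 through 3942 to 4557 in PTU exposed pups. All 6 PTU exposed pups lay above the control mean, yet the groups overlapped because control pup 1 was as high as the middle of the PTU exposed group. The means were 2692 ± 741 (SD, n = 7) and 3999 ± 380 (SD, n = 6), a log2 difference of 0.61 (standard error 0.14, 1.52-fold, adjusted p = 0.122 in limma). By exact permutation of the pups (two-sided, as in all such tests here) the unadjusted p was 0.00699. *Hspa8* passed the threshold when the pups were weighted by quality (adjusted p = 0.0413 in limma) and without PTU pup 2 (adjusted p = 0.0487 in limma). Mammalian genomes hold many processed copies of *Hspa8*, *Hsp90ab1*, *Hspd1* and *Hspe1*, and reads shared with such copies may have been divided among them by the counting model.

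*Hspa2*, an HSP70 gene best known from male germ cells, had a lower mean after PTU exposure. Control pups had 1523 to 3197 normalized counts (median 1889) and PTU exposed pups 1098 to 2835 (median 1306). Of the PTU exposed pups, 5 lay below every control pup, and PTU pup 2 alone lay high, at 2835. The log2 difference was -0.59 (standard error 0.21, adjusted p = 0.196 in limma, unadjusted exact permutation p = 0.0425). Without PTU pup 2 it was -0.78, with an adjusted p of 0.0393 in limma.

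The other 7 HSP70 genes had adjusted p-values of at least 0.322. The chaperone of the ER lumen, *Hspa5* (BiP), had 12897 ± 2355 normalized counts in control pups (SD, n = 7) and 12376 ± 2464 in PTU exposed pups (SD, n = 6), a log2 difference of -0.06 with a 95% confidence interval from -0.35 to 0.23. For *Hspa9* (mortalin), the HSP70 of the mitochondrial matrix, the means were 6079 ± 773 and 5865 ± 830, with an interval from -0.27 to 0.16 around -0.05. Both intervals include 0. *Hspa12a* and *Hspa12b*, distant members of the family, were picked out after their values were seen. *Hspa12a* had a log2 difference of 0.71 (adjusted p = 0.378 in limma) in which PTU pup 1 stood at 2462 normalized counts and the next pup of any group at 659. Without this pup, which also had the highest neuron marker sum (151665 normalized counts), the difference was 0.30. *Hspa12b* had 67.2 ± 15.1 and 91.3 ± 17.3 normalized counts (log2 difference 0.44, adjusted p = 0.322 in limma). The stress inducible genes *Hspa1a* and *Hspa1b* were not analysed here, since no row carries their names.

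Of the 3 HSP110 genes (median 0.06) and the 3 HSP90 genes (median -0.12), 0 reached an unadjusted p under 0.05, beside 16.3% of all rows. *Hspa4*, a nucleotide release factor of HSP70, exceeded the mean of the controls in 6 of 6 exposed pups, with 5637 ± 572 against 6245 ± 407 normalized counts (log2 difference 0.15, adjusted p = 0.344 in limma). The heat inducible HSP110 gene *Hsph1* had 2916 ± 415 and 3039 ± 403 normalized counts (0.06, interval -0.17 to 0.29). For *Hspa4l* the log2 difference was -0.10 (interval -0.29 to 0.08). All 3 HSP90 genes had a negative difference and also lay below the median of all rows with the same total for every pup, whereas 2 of 3 were above it with quantile normalization. *Hsp90ab1*, the constitutive form of the cytosol, had 59605 ± 7272 and 57698 ± 4675 normalized counts, a difference of -0.04 that turned positive with quantile normalization (0.22). The inducible form *Hsp90aa1* had 41974 ± 7674 and 38470 ± 7278 normalized counts, and its difference of -0.12 turned positive under the same alternative (0.015). *Hsp90b1* (Grp94), the HSP90 of the ER, had 20261 ± 3813 and 17279 ± 3144 normalized counts (-0.23, adjusted p = 0.397 in limma, -0.151 without PTU pup 4), with 5 of 6 PTU exposed pups below the control mean.

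The small heat shock genes, grouped by name, were the family with the lowest median, -0.51 on the log2 scale over 4 genes. Of these, 2 were lower at an unadjusted p under 0.05 (8.2% of all rows were). With the same total for every pup the median was -0.30 and all 4 remained below the median of all rows. *Hspb6* (Hsp20), abundant in muscle, had 453 to 786 normalized counts in controls (median 545) and 280 to 504 in exposed pups (median 389). PTU pup 2 was the single exposed pup within the control range, near its lower end. The means were 558 ± 117 and 388 ± 82.8, a log2 difference of -0.53 (standard error 0.16, adjusted p = 0.15 in limma, exact permutation p = 0.00699, unadjusted).

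*Hspb8*, which works with Bag3 to send damaged proteins to autophagy, had 295 to 553 normalized counts in control pups (median 372) and 208 to 385 in PTU exposed pups (median 253). PTU pups 4 and 5 lay among the controls and the other 4 lay below all of them. The log2 difference was -0.48 (standard error 0.18, adjusted p = 0.204 in limma, exact permutation p = 0.028, unadjusted). *Hspb1* (Hsp27), which acts on actin filaments, had 163 ± 53.1 and 107 ± 48.4 normalized counts and a log2 difference of -0.62 (interval -1.26 to 0.02, adjusted p = 0.318 in limma). *Hspb11*, a part of the cilium transport machinery in spite of its name, had 79.5 ± 21.8 and 75.8 ± 7.9 normalized counts (-0.02). Summed over the 4 genes, control pups had 1026 to 1429 and PTU exposed pups 667 to 1004 normalized counts, with PTU pups 6 and 1 lowest. Radial glia marker sums were lower in PTU exposed pups too, and PTU pup 6 was lowest in the small heat shock, radial glia and choroid plexus sums; their part in the result was not tested. *Hspb2*, *Hspb3* and *Hspb7* were not analysed here.

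**Figure D2:**
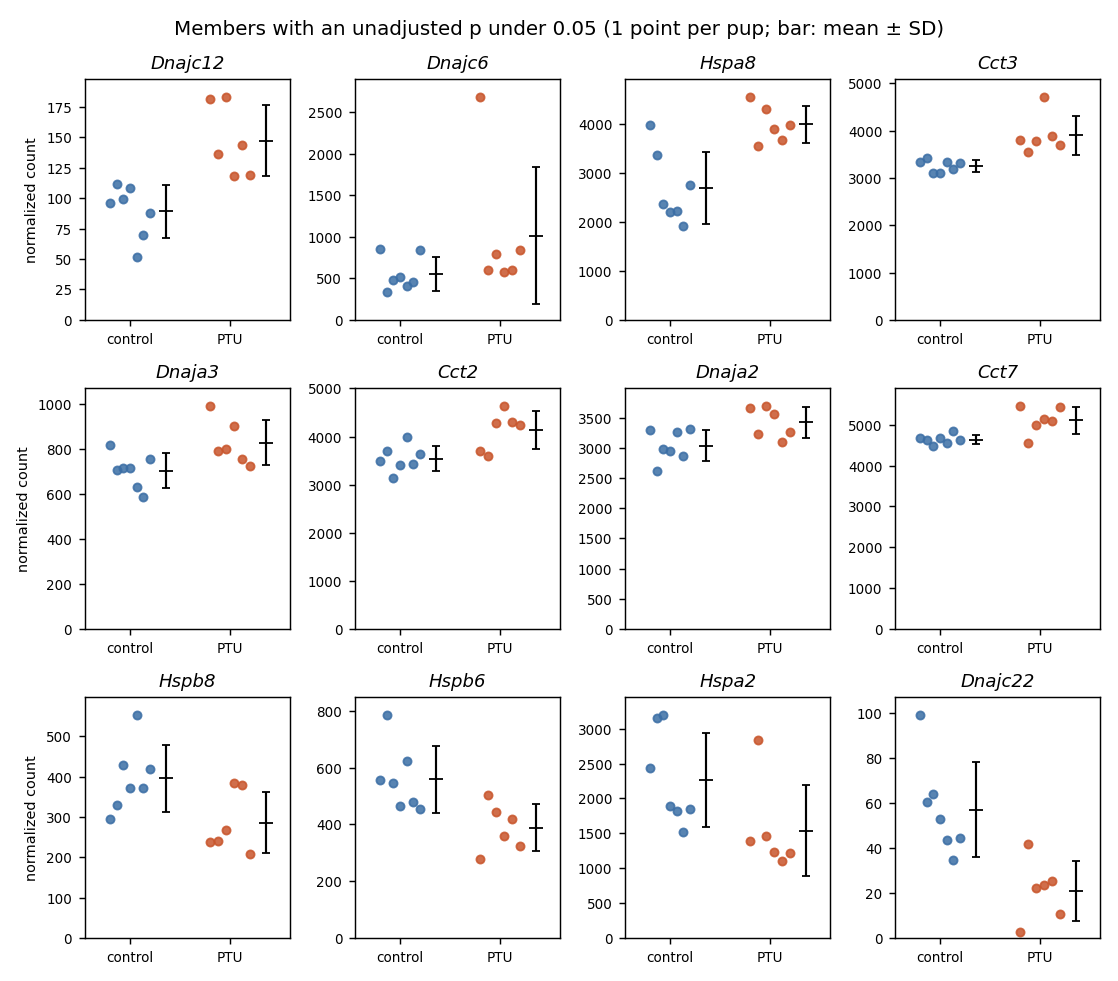
Normalized counts (vertical axes from 0) of the 12 members with an unadjusted p under 0.05, 1 point per pup in replicate order, with the mean ± SD of each group beside the points. *Cct3* and *Dnajc12* show no overlap, PTU pup 1 stands apart in *Dnajc6* and PTU pup 2 in *Hspa2*.

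Of the 8 subunits of the CCT ring, 6 had a higher mean in PTU exposed pups on the log2 scale (median difference 0.10), and 3 of them an unadjusted p under 0.05, where 8.11% of all rows were higher at that level. With the same total for every pup all 8 were above 0 and 6 above the median of all rows. *Cct3*, the gamma subunit, ran from 3102 through 3322 to 3431 normalized counts in control pups and from 3541 through 3794 to 4711 in PTU exposed pups. Every PTU exposed pup was above every control pup, and PTU pup 4 was far above the rest. The means were 3259 ± 127 (SD, n = 7) and 3906 ± 412 (SD, n = 6), a 1.19-fold difference (log2 difference 0.26, standard error 0.07, adjusted p = 0.147 in limma) that was 0.20 without PTU pup 4. The exact permutation p of 0.000583, unadjusted, is the smallest that 7 against 6 pups can give.

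For *Cct2*, the beta subunit, control pups had 3139 to 3990 normalized counts (median 3489) and PTU exposed pups 3598 to 4634 (median 4261). PTU pups 3 to 6 lay above all controls and PTU pups 1 and 2 among them. The log2 difference was 0.22 (standard error 0.08, adjusted p = 0.199 in limma, exact permutation p = 0.0128, unadjusted). The eta subunit *Cct7* had a narrow control range, 4484 to 4839 (median 4633), and 4558 to 5462 normalized counts in PTU exposed pups (median 5114). All PTU exposed pups but pup 2 exceeded the highest control. Its log2 difference was 0.14 (interval 0.00235 to 0.27, adjusted p = 0.298 in limma, exact permutation p = 0.00583, unadjusted).

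The zeta subunit *Cct6a* also had 6 of 6 exposed pups over the mean of the controls, with 2369 ± 156 and 2581 ± 126 normalized counts. Its log2 difference was 0.12 (adjusted p = 0.373 in limma). The unadjusted p was 0.0873 in limma and 0.0245 by exact permutation. The remaining 4 subunits gave smaller values. *Cct8* (theta) had a difference of 0.08 (interval -0.09 to 0.24, 0.022 without PTU pup 6) and *Cct4* (delta) of 0.05 (interval -0.17 to 0.27). *Cct5* (epsilon) had 7356 to 9321 normalized counts in control and 7028 to 8503 in PTU exposed pups, and the interval of its difference ran from -0.16 to 0.16. *Tcp1*, which encodes the alpha subunit, had 5269 ± 719 and 4887 ± 622 normalized counts (-0.11, interval -0.33 to 0.12). The protein subunits enter the ring in equal number, and the log2 differences of their transcripts ranged from -0.11 to 0.26. *Cct6b* was not analysed here.

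**Figure D3:**
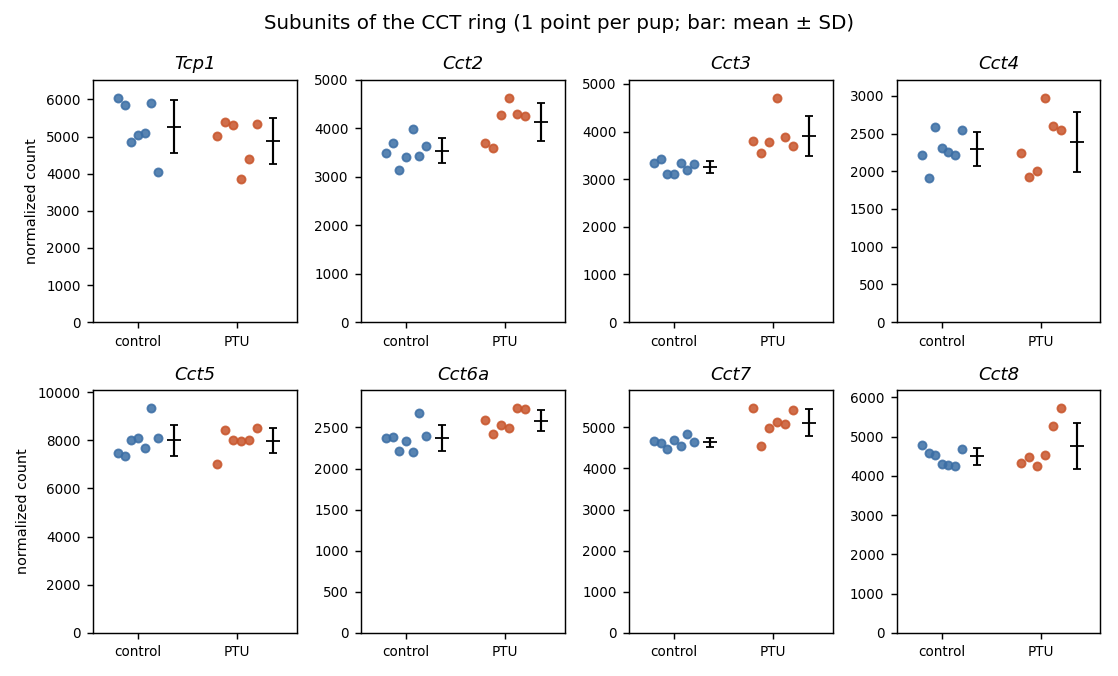
Normalized counts (vertical axes from 0) of the 8 CCT subunits in 7 control (blue) and 6 PTU exposed pups (orange), with the mean ± SD beside the points. *Cct3* separates the groups, *Cct2*, *Cct7* and *Cct6a* overlap in part, and *Cct5* and *Tcp1* overlap in most pups.

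DnaJ genes of class A, the closest partners of cytosolic and mitochondrial HSP70, had a median log2 difference of 0.11 over 4 genes, with 2 higher at an unadjusted p under 0.05 (8.11% of all rows were). *Dnaja3* (Tid1) of the mitochondria had 587 to 819 normalized counts in control pups (median 715) and 725 to 991 in PTU exposed pups (median 797). *Dnaja2* of the cytosol had 2618 to 3308 (median 2974) and 3096 to 3693 (median 3419). For both genes 6 of 6 PTU exposed pups lay above the control mean and the ranges overlapped. The log2 differences were 0.23 and 0.17 (adjusted p = 0.283 and 0.286 in limma, exact permutation p = 0.0262 and 0.0227, unadjusted). *Dnaja1* differed by 0.05 (interval -0.08 to 0.18).

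Of the 11 DnaJ genes of class B (median -0.07) 0 reached an unadjusted p under 0.05, beside 16.3% of all rows, and 8 had a lower mean on the log2 scale (1 with the same total for every pup, where 8 were below the median of all rows). Heat induces *Dnajb1* (Hdj1) strongly in most cells. It had 1166 ± 153 and 1200 ± 165 normalized counts (0.04, interval -0.19 to 0.27). *Dnajb4*, a close relative, had 474 ± 129 and 458 ± 96.2 (interval -0.41 to 0.36).

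The 26 DnaJ genes of class C, which share little but the J domain, included the highest and the lowest difference of all members (median -0.01). At an unadjusted p under 0.05, 2 of the 26 were higher and 1 lower, no larger a share than over all rows (8.11% and 8.2%). *Dnajc12*, the chaperone of the hydroxylases that make serotonin and dopamine precursors, ran from 52.0 through 96.1 to 112 normalized counts in control pups and from 118 through 140 to 183 in PTU exposed pups. Every exposed pup was above every control, with PTU pups 4 and 6 just above the highest control. The means were 89.3 ± 21.6 and 147 ± 29.1, a log2 difference of 0.73 (standard error 0.21, 1.66-fold, adjusted p = 0.148 in limma, exact permutation p = 0.00117, unadjusted).

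*Dnajc6* encodes auxilin, the neuronal partner that brings Hsc70 to clathrin coats. Control pups had 334 to 850 normalized counts (median 482) and PTU exposed pups 574 to 2682 (median 699). PTU pup 1 alone was above all controls, at 2682, and the other 5 lay between 574 and 836. The log2 difference of 0.69 (adjusted p = 0.292 in limma, exact permutation p = 0.0763, unadjusted) was 0.36 without PTU pup 1, the pup with the highest neuron marker sum, 151665 normalized counts. The 6 DnaJ genes listed here as neuronal (*Dnajc5*, *Dnajc6*, *Dnajc12*, *Dnajb2*, *Dnajb5*, *Dnajb6*) summed to 5714 to 7409 normalized counts in control pups and 6240 to 10386 in PTU exposed pups, with PTU pup 1 highest. Of them 2 were higher at an unadjusted p under 0.05, where 8.11% of all rows were. The median log2 difference was 0.11, with 4 above 0 and 2, *Dnajb2* and *Dnajb6*, below it. With the same total for every pup 6 were above 0 and 4 above the median of all rows. Whether each is confined to neurons in this tissue was not tested. The part of neuronal RNA in these values was not tested.

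*Dnajc22*, the mammalian relative of a fly gene needed for endocytosis, had the lowest log2 difference of all members. Control pups had 34.4 to 99.1 normalized counts (median 52.9) and PTU exposed pups 2.7 to 41.5 (median 22.7). PTU pup 2 lay within the control range and the other 5 below it, with PTU pup 1 lowest. The means were 57.0 ± 21.2 and 20.9 ± 13.3, a log2 difference of -1.67 (standard error 0.47, adjusted p = 0.143 in limma, exact permutation p = 0.00117, unadjusted). These values rest on an estimated 3.0 to 99.0 reads per pup, so the size of the difference is less certain than for the abundant chaperones, and a pseudocount of 10 gave -1.19.

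The listed heat inducible chaperones had log2 differences of both signs. Of the 12 listed, 10 had a row, and their median log2 difference was 0.04, with 6 above and 4 below 0 (7 and 3 with quantile normalization, and with the same total for every pup 9 and 1, or 6 and 4 around the median of all rows) and *Hspa8* as the only one at an unadjusted p under 0.05 (1 of 10, where 8.11% of all rows were higher). *Hspa8* is constitutive and is only weakly induced by heat in most cells, and the strongly inducible *Hspa1a* and *Hspa1b* are the 2 without a row. *Hspd1*, *Hspe1* and *Hsph1*, whose promoters hold the same 3-unit element as *Hspa8*, had log2 differences of 0.18, 0.20 and 0.06, and *Dnaja1* and *Cct4* of 0.05 each. *Hspd1* had 3130 ± 286 and 3572 ± 509 normalized counts (adjusted p = 0.339 in limma) and its neighbor *Hspe1* 180 ± 25.7 and 217 ± 72.9 (adjusted p = 0.656 in limma). The *Hspe1* difference ran from 0.093 without PTU pup 4 to 0.355 without PTU pup 5. In *Hspe1*, 4 PTU exposed pups were above and 2 below all controls. *Hspd1* was highest in PTU pups 1 and 3.

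**Figure D4:**
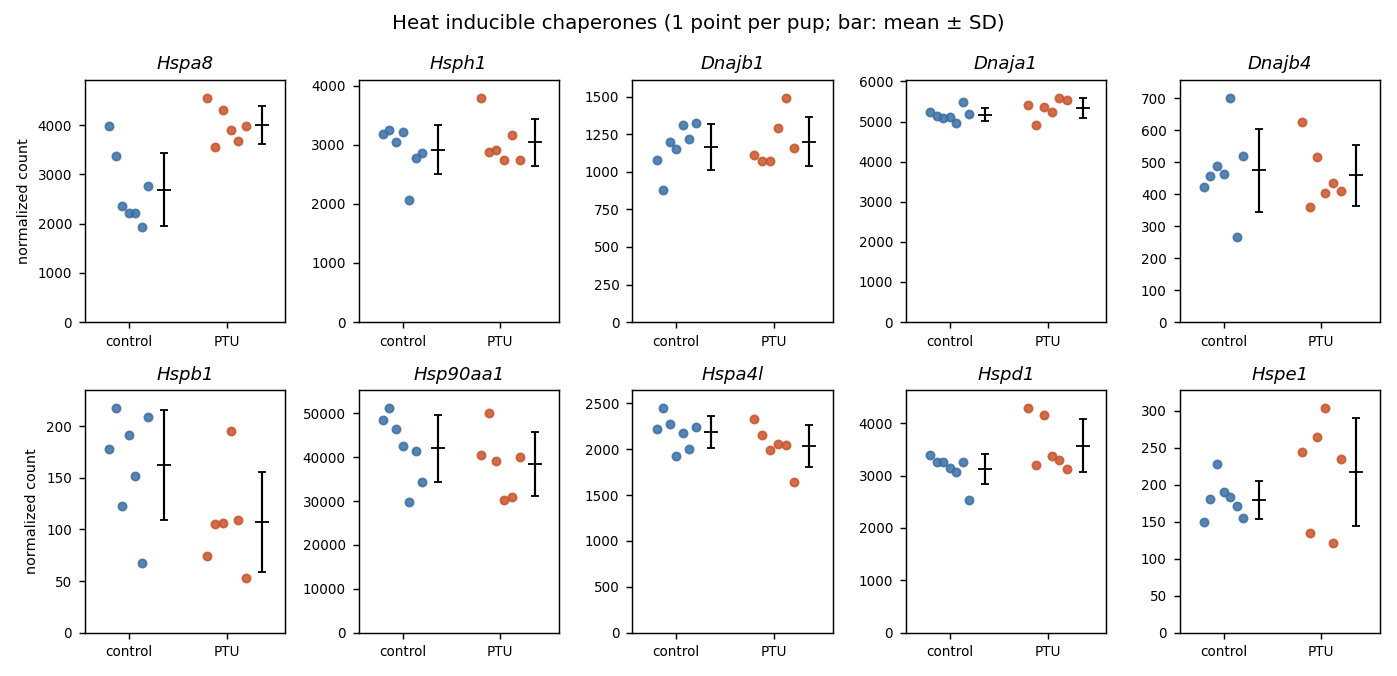
Normalized counts (vertical axes from 0) of the 10 heat inducible chaperones with a row, 1 point per pup, with the mean ± SD of each group. The PTU exposed pups are mostly above the controls in *Hspa8*, mostly below the control mean in *Hspb1*, *Hspa4l* and *Hsp90aa1*, and mixed with the controls in *Dnajb1* and *Dnajb4*.

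Grouped by compartment, the 11 ER chaperones had a median log2 difference of -0.06 and 0 at an unadjusted p under 0.05, where 16.3% of all rows were (median 0.14 with the same total for every pup, below that of all rows). They include *Hspa5*, *Hsp90b1* and *Dnajc3*, the genes with the ER stress response element, whose differences were -0.06, -0.23 and 0.10. The 7 mitochondrial chaperones had a median of 0.02, with *Dnaja3* the only one at that level (14.3%, beside 16.3% of all rows in either direction). The 6 cytosolic HSP70 genes with a row had a median of 0.42, with 5 above and 1 below 0. Of these, 1 was higher and 1 lower at that level, beside 8.11% and 8.2% of all rows. Their sums overlapped, at 4681 to 7890 normalized counts in control pups and 6059 to 9273 in PTU exposed pups, with PTU pup 1 highest.

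Genes that regulate or assist the chaperones were counted in the same way, beside a background of 8.11% of all rows higher and 8.2% lower. Of the heat shock factors and their regulators (4 of 5 with a row), *Hsf2* was higher at an unadjusted p under 0.05 (log2 difference 0.23, adjusted p = 0.29 in limma), and *Hsf1*, the main activator of the heat shock response, had -0.15 (adjusted p = 0.554). Of the 27 cochaperones of HSP70 and HSP90 with a row, 0 reached that level. The smallest p-values among them belonged to the phosphatase *Ppp5c* (0.15, adjusted p = 0.333) and *Nudcd2* (0.23, adjusted p = 0.407). The 9 partners of CCT, which are mostly prefoldin subunits and phosducin-like proteins, split into 2 higher and 2 lower, with *Txndc9* (-0.35, adjusted p = 0.236) and *Pfdn5* (0.28, adjusted p = 0.253) leading. Among the 19 genes of ER folding and the unfolded protein response, the transcription factor *Xbp1* was higher (0.43, adjusted p = 0.182) and the disulfide isomerase *P4hb* lower (-0.18, adjusted p = 0.279) at an unadjusted p under 0.05. In the 12 genes of mitochondrial folding and proteolysis, 3 were lower, led by the iron-sulfur cochaperone *Hscb* (-0.41, adjusted p = 0.231) and the import motor anchor *Timm44* (-0.26, adjusted p = 0.251). Of the immediate early genes, which respond to dissection and handling among other stimuli, 2 of 13 were higher at that level, *Egr1* (0.74, adjusted p = 0.255) and *Egr3* (1.10, adjusted p = 0.299), beside the same background. Without PTU pup 1, which also had the highest neuron marker sum, the *Egr3* difference was 0.64 and that of *Egr1* 0.52. The immediate early sum was highest in PTU pup 5 (14606 normalized counts) and the mean of centred log2 values in PTU pup 1, and their part in the chaperone values was not tested.

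**Figure D5:**
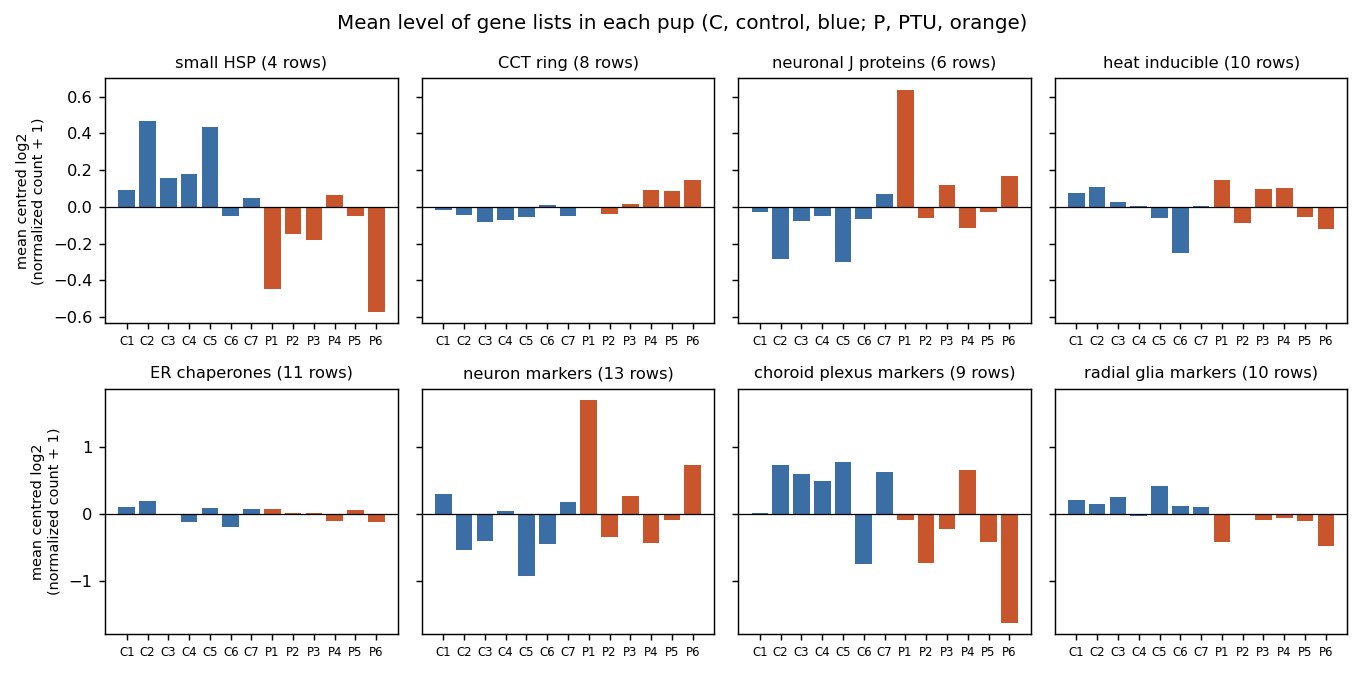
Mean over each gene list of log2(normalized count + 1), centred for each row on its mean over all 13 pups (vertical axes, the lower row of panels on a wider scale), for control pups C1 to C7 and PTU exposed pups P1 to P6. Small heat shock genes are lowest in P6 and P1, CCT subunits range from -0.08 to 0.15, neuronal DnaJ genes and neuron markers are highest in P1, and choroid plexus markers are lowest in P6.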

How the data were processed

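RNA of the laser captured VZ was sequenced from 7 control and 6 PTU exposed male pups of different litters. Per the methods, the authors used Trimmomatic for trimming, STAR 2.7.8a for alignment (genome mRatBN7.2) and the expectation maximization model of Partek for counting, followed by median ratio scaling of each pup. The deposited signal is therefore a normalized count and not a raw count. Rows are labelled with Ensembl identifiers although RefSeq is the annotation stated, and symbols are those deposited with the rows. The filter on low rows used by the authors is not given in the sources used here. The table also holds the p-value, FDR, ratio, log2 ratio, fold change and group means of the authors' DESeq2 comparison, which were not used. The number of per-sample columns left out was 0.

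After a filter on the mean (10 or more), values were put on the scale log2(normalized count + 1). This scale makes differences of scarce transcripts look smaller. Groups were compared by limma 3.58.1, run under R 4.3.3 (group as the sole term, empirical Bayes with a variance trend, Benjamini-Hochberg over 14606 rows, threshold 0.05). Confidence intervals (95%) come from the same model. For members, the difference of mean log2 values was also tested with an exact permutation test (two-sided) over all 1716 regroupings of 13 pups. The limma and permutation steps were tested on simulated data. Exact tests and the motif search were run in Python 3.11.15 (scipy 1.17.1, pandas 2.3.3, numpy 2.4.6), and figures were drawn with matplotlib 3.10.9.

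The members and lists were chosen with earlier results of these data known. Values are given for members with an unadjusted p under 0.05 or groups that did not overlap, CCT subunits, heat inducible chaperones, *Hsp90ab1*, *Hspa5*, *Hsp90b1*, *Hspa9* and the member with the smallest p of each list, 31 in all. The other 39 are given by counts and ranges, except *Hspa12a*, *Hspa12b*, *Hspb11* and *Dnajc3*, which were added after their values were seen. Reads per pup were estimated from the step between low values. Of values from 20 to 150, 88.9 to 90.5% per pup lay within 0.05 of a whole number of steps, too few to recover raw counts, so no count model was used. The 3 highest rows held 32.4 to 60.1% of the reads of a control pup and 23.9 to 57.0% of those of an exposed pup. No 2 pups were near identical (highest correlation over rows 0.9804). Levels of different genes were not compared, since lengths were not used here. Alternatives covered the scaling (TMM, quantile, the same total with and without the 3 highest rows), the pseudocount (0.1 or 10), the row filter (none, or a mean of 100), rows summed per gene, weights for pup quality, a fit with no trend, a block on replicate number, and omission of each pup in turn.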

Additional observations from a re-analysis of the deposited data

Results flagged for a closer look

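Among the 62 groups of pups examined for the 31 members given with values, a single pup lay far from the rest of its group in 7, while chance gives about 1 in 20. PTU pup 4 was highest for *Cct3* at 4710.65 normalized counts, with the next pup of its group at 3893.29. PTU pup 2 was highest for *Hspa2*, at 2834.93 against 1465.25. For *Dnajc6*, PTU pup 1 reached 2682.24 and the next pup 835.531. Control pup 7 was lowest for *Hspd1* (2524, next 3063.2) and control pup 5 for *Hsph1* (2072.31, next 2771.02). Control pup 6 was highest for *Cct6a* (2673.7, next 2398.33) and for *Cct5* (9321.26, next 8079.36).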

How the results depend on the processing

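The number of rows at an adjusted p of at most 0.05 in limma was 0 in the comparison as reported, 40 with pups weighted by quality (*Hspa8* the only member), 18 with the replicate block (0 members), and 0 to 179 when 1 pup was left out, the highest without PTU pup 2 (members *Hspa8* and *Hspa2*). Members higher at an unadjusted p under 0.05 numbered 4 (without PTU pup 1) to 11 (without PTU pup 2) when 1 pup was left out. Members lower numbered 4 as reported, 1 with the same total for every pup, 7 with the replicate block, and 4 to 6 with 1 pup left out. The member median was 0.19 with the same total for every pup, where the median of all rows was 0.204, and -0.019 to 0.01 with 1 pup left out.

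Of the 31 members given with values, 20 kept their sign under every alternative run, and in 4 more (*Hspa4l*, *Hspa5*, *Hspa9*, *Tcp1*) it turned with the same total alone, which moved all rows. With that scaling positive values were reached by *Cct5* (0.201), *Dnajb4* (0.177), *Hsp90ab1* (0.16), *Hspa9* (0.147), *Hspa5* (0.143), *Hspa4l* (0.097), *Tcp1* (0.095) and *Hsp90aa1* (0.077), each still below the median of all rows. The sign turned for *Hsp90ab1* (0.224) and *Hsp90aa1* (0.015) with quantile normalization, and for *Cct5* with the same total without the 3 highest rows (0.005) and with weights (0.012). With 1 pup left out the difference of *Cct4* ran from -0.021 to 0.105, of *Cct5* from -0.02 to 0.037, of *Dnajb1* from -0.023 to 0.076, of *Dnajb4* from -0.156 to 0.078 and of *Hsph1* from -0.016 to 0.093, so each turned at least once. Other differences near 0 also moved by over 1.5 times without single pups, among them those of *Hsp90aa1*, *Hsp90ab1*, *Hspa4l*, *Hspa5*, *Hspa9*, *Tcp1* and *Dnaja1*, and no member with an unadjusted p under 0.05 did so except *Dnajc6* (0.357 without PTU pup 1). The cause was not tested.

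Replicate numbers belong to pups of different litters. Deviations of same-numbered pups correlated at -0.07 to 0.198 over 6 pairs, above 0.1 in 4 of them, and 1 of 6 correlated best with its own number. Since not every pair was above 0.1 and the labels tie no numbers across litters, the numbers were not taken as pairs. With the replicate block *Cct5* was at 0.003 and *Dnajb4* at 0.006. Estimated reads as low as 3.0 for *Dnajc22* limit the precision of scarce members.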
